A study of Rattus norvegicus with 6 samples.

Results

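The 10 genes described here encode enzymes that act on p-nitroanisole, a methoxy-substituted nitrobenzene, on its product p-nitrophenol, and on the amines and epoxides that such aromatic compounds can form. They are Cyp2e1 and Por (oxidation), Xdh, Aox1 and Cyb5r3 (reduction), Nat1 and Nat2 (acetylation), Sult1a1 and Sult1b1 (sulfation) and Ephx1 (epoxide hydrolysis), and they were found by the accession that the array files give for each probe. All 10 were on the array, with 17 probes among 61537, out of 15639 genes that could be named. Renal cortex RNA of 6 Sprague-Dawley males, Crl:CD(SD), was measured on 1-colour Agilent arrays, 1 array per animal. The p-nitroanisole group was 3 rats dosed with 500 mg/kg/day of the compound for 4 weeks, and the vehicle group was 3 rats dosed with corn oil over the same 4 weeks. All 6 rats were bought at 5 weeks of age, carried no genetic change named in the labels and were fed a basal diet. The route of dosing is not given in the sources used here. The tissue is bulk cortex, in which fewer cells of a type and less RNA per cell cannot be told apart.

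O-demethylation of p-nitroanisole by microsomal cytochrome P450 enzymes gives p-nitrophenol and formaldehyde, and this reaction has long served as a general assay of P450 activity. Cyp2e1 hydroxylates p-nitrophenol to nitrocatechol and is the usual marker enzyme of that step, while Por hands the electrons of NADPH to every microsomal P450. Nitro groups can be reduced to amines by molybdenum enzymes and other flavin or heme-linked reductases, and the phenol and the amine are then conjugated with sulfate or an acetyl group. In the kidney these enzymes lie largely in the proximal tubule, the main site of drug metabolism and of organic anion secretion in the cortex.

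Of the 10 genes, Cyp2e1 alone passed the test across all genes, and it fell with treatment. On the log2 scale Ephx1 and Por were 0.72 and 0.64 higher and Sult1b1, Sult1a1 and Nat1 were 0.81, 0.42 and 0.36 lower with treatment, and for each of these 5 the 3 treated arrays lay outside the range of the 3 vehicle arrays without passing the test. The arrays of the groups overlapped for Xdh, Aox1, Cyb5r3 and Nat2. Thus 1 of 10 genes was called in limma with Benjamini-Hochberg adjustment over all 32202 rows, at a threshold of 0.05, against 0.0745% of all rows called in either direction and 0.0248% called lower, and 6 of 10 had an unadjusted p under 0.05, against 13.5% of all rows. The groups did not overlap for 6 of 10 genes, against 22.2% of all rows. The median absolute log2 difference was 0.39 over the 10 genes and 0.12 over all rows. The signed medians were -0.07 and 0.01. The 10 genes were chosen with earlier results of these data known, so the comparison with all rows is not an independent one.

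**Figure D1:**
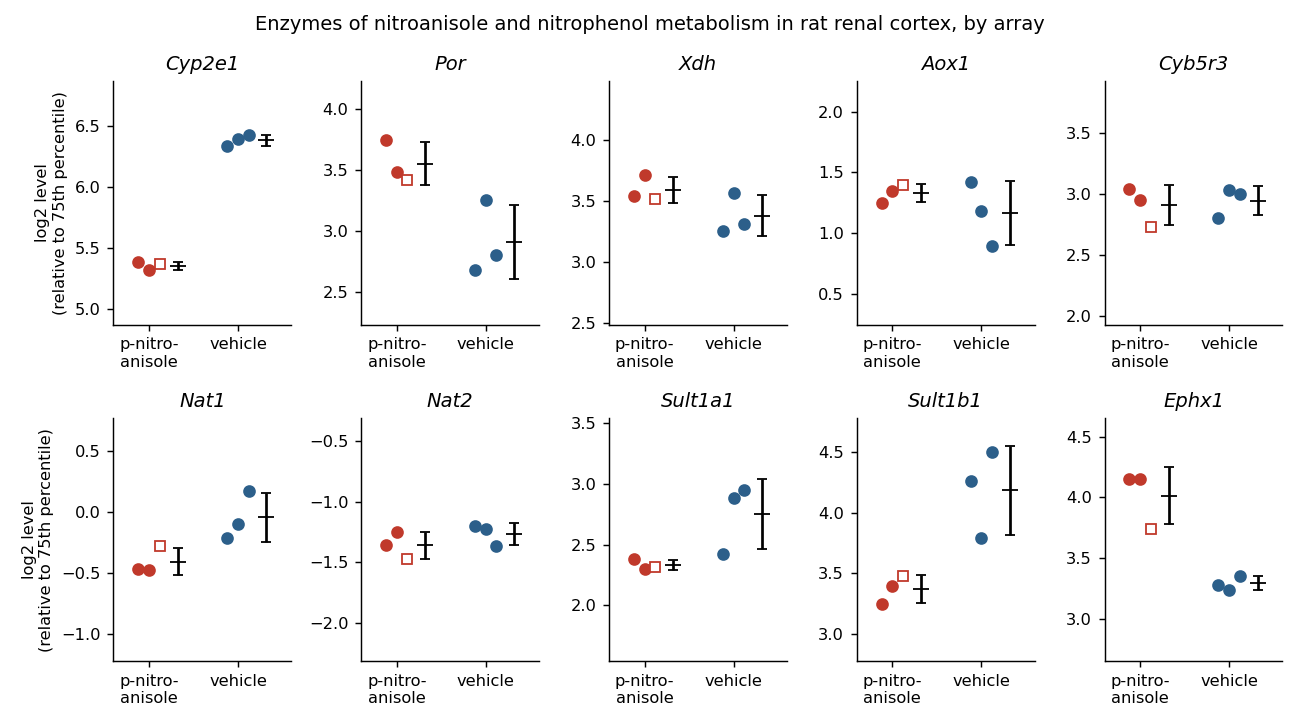
Log2 level of each of the 10 genes on each array, relative to that array's 75th percentile, with p-nitroanisole at the left and vehicle at the right of each panel. Filled circles are arrays on slide 1, the open square is treated replicate 3 on slide 2, and the bars give the mean and SD (n = 3 per group). Each panel spans the same range of 2 log2 units, and Cyp2e1 shows the clearest gap, 0.95 between the nearest arrays.

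The 250 bases before the transcription start are shown for the 4 genes with the largest differences, a pair that was lower with treatment and a pair that was higher, so that their promoters can be set side by side. They come from RefSeq on GRCr8, are written 5′ to 3′ on the strand of the gene, and carry capitals at every match, on either strand, to TATAAA (the TATA box), GGGCGG (the GC box) or GCGTG (the core bound by the aryl hydrocarbon receptor). The Cyp2e1 window is chr1:205269717-205269966 (plus strand), that of Sult1b1 is chr14:20771667-20771916 (plus strand), that of Ephx1 is chr13:95275853-95276102 (minus strand, the first of 2 starts listed) and that of Por is chr12:26635810-26636059 (minus strand).
Cyp2e1: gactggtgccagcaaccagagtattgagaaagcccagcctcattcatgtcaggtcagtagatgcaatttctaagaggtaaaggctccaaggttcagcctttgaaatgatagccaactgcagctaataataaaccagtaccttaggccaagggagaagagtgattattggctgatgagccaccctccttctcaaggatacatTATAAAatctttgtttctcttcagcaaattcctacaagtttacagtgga
Sult1b1: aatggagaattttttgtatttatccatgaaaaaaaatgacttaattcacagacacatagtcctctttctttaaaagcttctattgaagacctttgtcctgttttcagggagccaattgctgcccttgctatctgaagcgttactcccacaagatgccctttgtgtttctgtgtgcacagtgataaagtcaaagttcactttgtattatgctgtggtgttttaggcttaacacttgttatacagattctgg
Ephx1: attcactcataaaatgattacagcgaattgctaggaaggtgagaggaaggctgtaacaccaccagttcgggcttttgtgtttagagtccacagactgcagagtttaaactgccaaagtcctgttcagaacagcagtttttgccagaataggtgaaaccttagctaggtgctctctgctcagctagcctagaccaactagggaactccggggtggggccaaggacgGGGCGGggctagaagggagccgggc
Por: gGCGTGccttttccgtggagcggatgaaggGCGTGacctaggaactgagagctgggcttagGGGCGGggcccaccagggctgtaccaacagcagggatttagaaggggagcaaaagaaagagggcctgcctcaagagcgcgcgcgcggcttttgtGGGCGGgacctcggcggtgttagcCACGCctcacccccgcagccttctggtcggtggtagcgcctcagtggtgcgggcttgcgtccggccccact
G and C made up 42.8% and 37.2% of the bases in Cyp2e1 and Sult1b1 and 51.6% and 66% in Ephx1 and Por, beside a median of 52% over all promoters of this length. Cyp2e1 had 1 TATA box, beginning 49 bases before the start, a motif that 13.1% of the 27457 promoters held. Ephx1 had 1 GC box and Por had 2, against a share of 32.4% of promoters, and Por also had 3 matches to GCGTG, against 27.2%. Sult1b1 had no match to these motifs, and no 2 matches overlapped. Promoters were available for 8 of the 10 genes, and 5 of these 8 held a GC box. Among the 5 was Sult1a1, which was lower with treatment and had 51.2% G and C. Among the 8 none held GTTAAT (part of the HNF1 site, in 6.46% of all promoters) or TGACNNNGC (the core of the antioxidant response element, in 10.2%). A match, or the lack of one, describes the letters of this window and is no evidence of binding.

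Cyp2e1 is the P450 that oxidises small solvents and p-nitrophenol. Its single probe (A_44_P409232, NM_031543) read 41.6, 39.8 and 41.2 times the array's 75th percentile in the p-nitroanisole group, against 80.6, 83.9 and 85.9 times in the vehicle group. The groups were far apart and each was tight, with an SD of 0.03 log2 units among treated arrays and 0.05 among vehicle arrays. The fall was 2.04-fold (log2 difference -1.03, SE 0.06, 95% interval -1.18 to -0.88, limma adjusted p = 0.0378). The size hardly moved under the 17 alternatives, from -1.08 to -1.01, but the call was lost when any 1 of the 6 arrays was left out: without treated replicates 1, 2 and 3 the adjusted p was 0.137, 0.140 and 0.0579, and without vehicle replicates 1, 2 and 3 it was 0.113, 0.151 and 0.0832. Removing the filter on dim probes also ended the call (limma adjusted p = 0.0754). With every tested probe as its own row the call held (limma adjusted p = 0.0427). Treated replicate 3 is the array on slide 2, so the fit without it is also the comparison within slide 1 (log2 difference -1.04).

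Por, the NADPH-cytochrome P450 reductase, ran the other way. Its single probe (A_44_P402375, NM_031576) read 13.4, 11.2 and 10.7 times the 75th percentile with p-nitroanisole, against 6.39, 9.52 and 6.97 times with vehicle. The lowest treated array was above the highest vehicle array by 0.16 log2 units, and vehicle replicate 2 stood well above the other vehicle arrays. The log2 difference was 0.64 (SE 0.18, 95% interval 0.21 to 1.07), which did not pass (limma adjusted p = 0.236). Leaving out 1 array gave 0.52 (without vehicle replicate 1) to 0.81 (without vehicle replicate 2), with 0.71 within slide 1, and no call.

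Genes listed for P450 electron transfer and heme binding, and the enzymes that remove the formaldehyde of O-demethylation, gave no call. Of 9 genes listed for electron transfer and heme binding, all 9 were tested and 0 were called. At an unadjusted p under 0.05 there was 1, against 13.5% of all rows. That was Cyb5r2, a relative of cytochrome b5 reductase, with a log2 difference of -0.40 (SE 0.11, limma adjusted p = 0.229). Its log2 levels were -3.20, -3.13 and -2.88 with p-nitroanisole and -2.72, -2.73 and -2.56 with vehicle, so the groups did not overlap. Cyb5a, the cytochrome b5 that can pass an electron to P450, differed by 0.14 (SE 0.06, limma adjusted p = 0.406). The log2 differences of the list ran from -0.40 to 0.34 (Cyb5r1, SE 0.16), with a median of 0.02. Its summed level was 205 to 222 with p-nitroanisole and 194 to 200 with vehicle. Among the 3 formaldehyde genes, 0 were called. Aldh2, the mitochondrial aldehyde dehydrogenase, differed by 0.17 (SE 0.06, limma adjusted p = 0.313), with tight groups at 6.17, 6.18 and 6.12 against 6.01, 5.98 and 5.96 on the log2 scale.

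For all 3 nitro-reducing enzymes the groups overlapped and the interval of the difference included 0. Xdh, the xanthine dehydrogenase that makes uric acid and can reduce nitro groups, read 11.7, 13.1 and 11.4 times the 75th percentile with p-nitroanisole, against 9.54, 11.9 and 9.95 times with vehicle. Vehicle replicate 2 lay above 2 of the treated arrays. The log2 difference was 0.21 (95% interval -0.06 to 0.48, limma adjusted p = 0.462). Its second probe (A_43_P11840) gave 0.30 with a wide interval, -0.53 to 1.13, and ranked the arrays differently, since treated replicate 1 was its lowest treated array, at 1.55 log2 units against 2.59 and 2.60 on the other treated arrays. Leaving out 1 array gave 0.09 (without vehicle replicate 2) to 0.65 (without treated replicate 1) on the second probe, and 0.15 to 0.31 on the first. The array with the lowest vehicle level on that probe was replicate 2, which was the highest on the first probe.

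Aox1, the aldehyde oxidase of the same molybdenum family, read 2.38, 2.55 and 2.64 times the 75th percentile with p-nitroanisole, against 2.68, 2.27 and 1.86 times with vehicle. The treated arrays fell inside the range of the vehicle arrays, which was the wider of the 2. The log2 differences of its probes were 0.17 (95% interval -0.18 to 0.52) and 0.20 (-0.13 to 0.53). Dropping vehicle replicate 3 left 0.03 and 0.06, and dropping vehicle replicate 1 gave 0.30 and 0.31. Both probes placed vehicle replicate 3 lowest of the 6 arrays.

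Cyb5r3, the NADH-cytochrome b5 reductase that is also the methemoglobin reductase of red cells, had the difference nearest to 0 of the 10 genes. It read 8.27, 7.76 and 6.65 times the 75th percentile with p-nitroanisole and 7.01, 8.20 and 8.001 times with vehicle. The log2 difference was -0.04 (95% interval -0.31 to 0.24) on its first probe and -0.02 (-0.27 to 0.24) on its second, so a change of 1 log2 unit in either direction lies outside both intervals. Red cell markers were higher with treatment in the same RNA. All 5 tested markers of 6 listed were higher with an unadjusted p under 0.05, against 7.69% of all rows. The marker Hemgn was well above background on 3 of 3 treated and 2 of 3 vehicle arrays. It was thus tested only through the treated group, where it was higher. The summed level of the 5 markers was 873 to 975 with p-nitroanisole, against 425 to 513 with vehicle. The part of red cell RNA in the Cyb5r3 level was not tested.

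**Figure D2:**
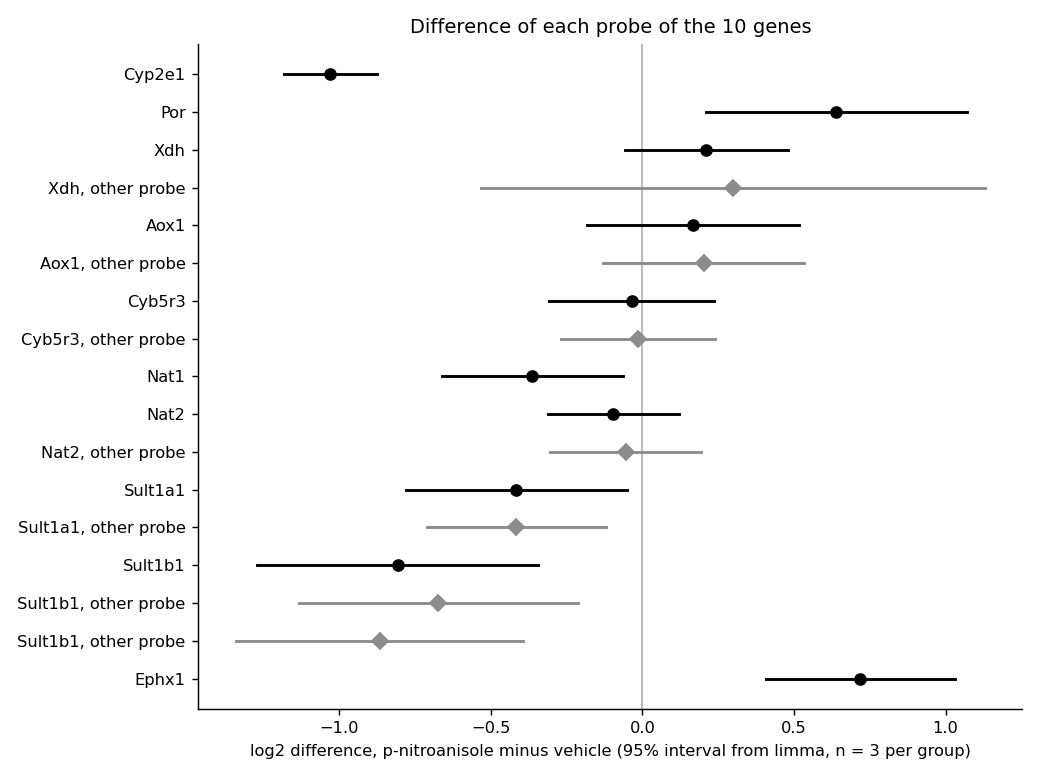
Log2 difference, p-nitroanisole minus vehicle, of all 17 probes with limma's 95% interval (n = 3 per group). Black circles are the probe with the highest mean level of each gene and grey diamonds its other probes. All 3 Sult1b1 probes and both Sult1a1 probes lie below 0, and both Cyb5r3 probes lie close to 0.

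The other molybdenum enzymes and reductases also gave no call. Of 11 genes for molybdenum enzymes and their cofactor, 8 were tested and 0 had an unadjusted p under 0.05, against 13.5% of all rows. Their log2 differences ran from -0.29 to 0.24. Mtarc1, the mitochondrial amidoxime reducing component, had the largest, -0.29 (SE 0.28), with treated arrays spread from 3.37 to 4.44 and vehicle arrays from 3.95 to 4.38 on the log2 scale. Aox3 followed at -0.27 (SE 0.17), with 1 of 3 treated arrays and 3 of 3 vehicle arrays well above background. Of 6 genes listed as quinone and other reductases, all 6 were tested and 0 were called. The list includes Tyms, the thymidylate synthase, which is not a reductase (log2 difference -0.15, SE 0.10). Of the 6 genes 2 had an unadjusted p under 0.05, against 13.5% of all rows, and both were higher with treatment. Nqo1, the quinone reductase, had log2 levels of -1.83, -1.65 and -2.28 with p-nitroanisole against -3.21, -2.75 and -2.69 with vehicle, a difference of 0.96 (SE 0.21, limma adjusted p = 0.179). Gsr, the glutathione reductase, differed by 0.36 (SE 0.07, limma adjusted p = 0.164) with log2 levels of 1.15, 1.35 and 1.23 against 0.89, 0.88 and 0.88.

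The acetyltransferases Nat1 and Nat2, which attach an acetyl group to arylamines, are close relatives, and how far their probes share signal was not tested. Nat1 (A_44_P276435, NM_053853) read 0.723, 0.720 and 0.825 times the 75th percentile with p-nitroanisole, against 0.864, 0.934 and 1.13 times with vehicle. The groups were apart by 0.07 log2 units at their nearest arrays. The log2 difference was -0.36 (SE 0.12, 95% interval -0.66 to -0.06, limma adjusted p = 0.308), and leaving out 1 array gave -0.45 (without vehicle replicate 1) to -0.25 (without vehicle replicate 3, the highest array).

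Nat2 read 0.390, 0.421 and 0.360 times the 75th percentile with p-nitroanisole and 0.434, 0.429 and 0.388 times with vehicle. The groups overlapped, with log2 differences of -0.10 (95% interval -0.31 to 0.12) and -0.06 (-0.30 to 0.19) on its 2 probes. The first was -0.04 without treated replicate 3 and -0.15 without treated replicate 2 or vehicle replicate 3, and on the second, dropping vehicle replicate 1 gave 0.015 and dropping vehicle replicate 3 gave -0.16. Of the 9 genes listed around acetylation and deacetylation, 8 were tested and 0 were called. An unadjusted p under 0.05 was found for 2, against 13.5% of all rows. Aadac, the arylacetamide deacetylase, differed by 0.53 (SE 0.16, limma adjusted p = 0.273), with log2 levels of 0.06, -0.08 and 0.03 against -0.63, -0.78 and -0.18. Ces1d, a carboxylesterase, differed by -0.55 (SE 0.13, limma adjusted p = 0.198), with 3.65, 3.86 and 3.63 against 4.33, 4.02 and 4.43.

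Both sulfotransferases were lower with treatment on each of their 5 probes, and neither was called. Sult1b1, which sulfates small phenols and thyroid hormones, read 9.53, 10.5 and 11.1 times the 75th percentile with p-nitroanisole, against 19.1, 13.8 and 22.6 times with vehicle. Every treated array was below every vehicle array on all 3 probes, and vehicle replicate 2 was the lowest vehicle array on all 3. The log2 differences were -0.81 (SE 0.19, 95% interval -1.27 to -0.34, limma adjusted p = 0.194), -0.87 (SE 0.19) and -0.67 (SE 0.19). Probes of a transcript on the same arrays are repeat readings of the same 6 animals. On the first probe, leaving out 1 array gave -1.003 (without vehicle replicate 2) to -0.65 (without vehicle replicate 3), with -0.86 within slide 1.

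Sult1a1, the main phenol sulfotransferase and one that conjugates p-nitrophenol, read 5.21, 4.92 and 4.99 times the 75th percentile with p-nitroanisole, against 5.35, 7.36 and 7.71 times with vehicle. The treated arrays were tight (SD 0.04 log2 units) and vehicle replicate 1 lay close above them, by 0.04 log2 units. The log2 difference was -0.42 (SE 0.15, 95% interval -0.78 to -0.05, limma adjusted p = 0.325) and the second probe gave the same -0.42 (SE 0.12). Leaving out 1 array gave -0.58 (without vehicle replicate 1) to -0.32 (without vehicle replicate 3) on the first. Here vehicle replicate 1 was the lowest vehicle array on both probes, whereas for Sult1b1 it was vehicle replicate 2.

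Of 22 other sulfotransferase and sulfate supply genes, 18 were on the array and 11 were tested. Of these 0 were called, and 1 had an unadjusted p under 0.05, against 13.5% of all rows. Slc26a1, the sulfate exchanger of the basolateral membrane of the proximal tubule, had log2 levels of 6.70, 6.60 and 6.66 with p-nitroanisole against 6.18, 6.17 and 6.06 with vehicle, a difference of 0.52 (SE 0.07, limma adjusted p = 0.0934). The log2 differences of the 11 genes ran from -1.04 (Sult1c3, SE 0.67, groups overlapping) to 0.52, with a median of -0.03. Papss2, which makes the activated sulfate that sulfotransferases use, differed by 0.01 (SE 0.13).

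Ephx1, the microsomal epoxide hydrolase, had the largest positive difference of the 10 genes, which did not pass the test. Its single probe (A_44_P174374, NM_012844) read 17.7, 17.7 and 13.4 times the 75th percentile with p-nitroanisole, against 9.74, 9.48 and 10.2 times with vehicle. Treated replicate 3 was the lowest treated array and still exceeded the highest vehicle array by 0.39 log2 units. The log2 difference was 0.72 (SE 0.13, 95% interval 0.41 to 1.03, limma adjusted p = 0.139), and within slide 1, without that array, it was 0.85 (adjusted p = 0.0794). With a trended and robust variance Ephx1 was called (adjusted p = 0.0475), where 0.981% of all rows were.

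Of the other epoxide hydrolases, 3 of 4 were tested and 0 had an unadjusted p under 0.05, against 13.5% of all rows. Ephx2, the soluble epoxide hydrolase, read 2.62, 2.83 and 2.72 with p-nitroanisole against 2.06, -1.30 and 2.74 with vehicle on the log2 scale. Vehicle replicate 2 thus lay far below the other 5 arrays, and the difference of 1.56 had an SE of 1.03 and an interval that included 0 (-0.97 to 4.08). Ephx4 differed by -0.09 (SE 0.12). Over all 7 lists 48 of 64 genes were tested, 0 were called in limma against 0.0745% of all rows, and 7 had an unadjusted p under 0.05, 5 higher and 2 lower, against 7.69% and 5.77% of all rows.

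**Figure D3:**
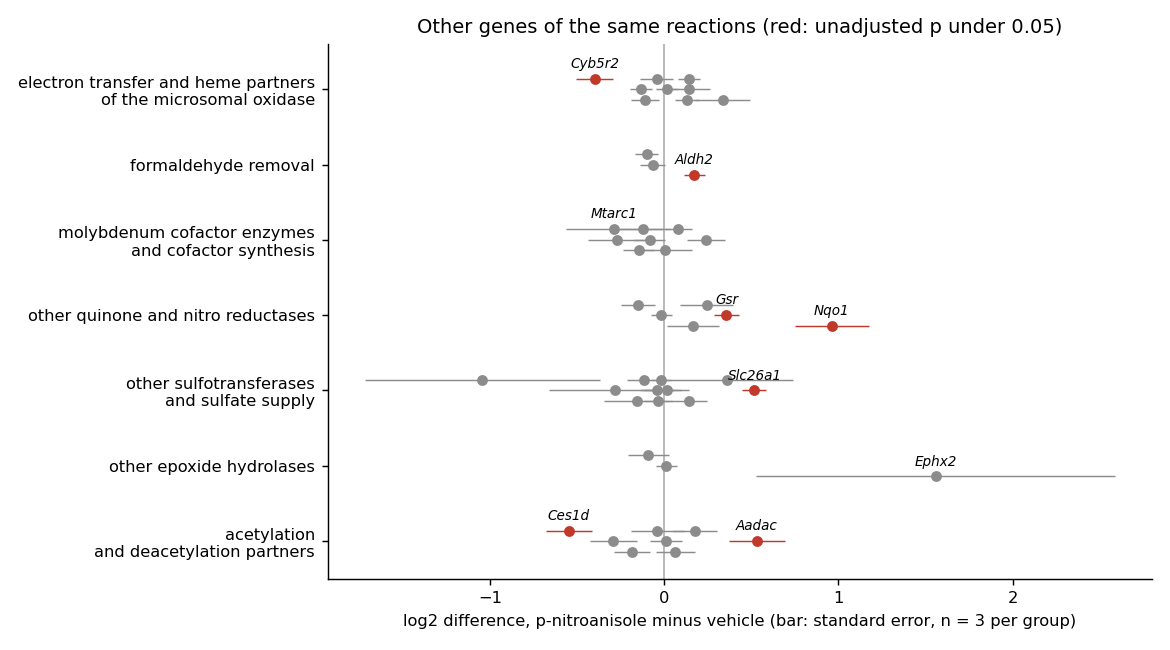
Log2 difference, p-nitroanisole minus vehicle, of the 48 tested genes listed beside the 10 enzymes, by list, with standard errors (n = 3 per group). Red points have an unadjusted p under 0.05 and none passed the adjusted threshold. Ephx2 carries the widest bar, from the single low vehicle array.

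The summed level of markers of the proximal tubule, where most of these enzymes lie, overlapped between the groups. All 9 listed were tested and 0 were called, and their median log2 difference was 0.06. Their summed level was 1700 to 1844 with p-nitroanisole and 1688 to 1811 with vehicle, relative to the 75th percentile. Of the 9, 7 were higher and 2 lower, against 52.4% of all rows higher. Slc22a6 was 0.18 higher (SE 0.06, limma adjusted p = 0.316), without overlap of the groups. Genes listed as markers of the last segment of the proximal tubule (6 of 6 tested, 0 called) had a median of 0.36. Slc5a8 was 0.81 (SE 0.26) and Gatm 0.46 (SE 0.15) higher. How far the 6 genes are confined to that segment was not tested. Their summed level was 167 to 208 with p-nitroanisole and 179 to 196 with vehicle. That sum is mostly Aqp1, with vehicle log2 levels of 7.06, 7.01 and 7.05. Slc7a13 varied widely over the same vehicle arrays, at 1.83, 3.22 and 4.83, and differed by 0.26 (SE 0.74). Markers of thick limb, collecting duct, podocyte, endothelium, macrophage, T and NK cells, liver and fat had 0 called genes each. At an unadjusted p under 0.05, collecting duct, endothelium, T and NK cells and fat had 1 lower gene each. Macrophages had 1 higher and 1 lower, against 7.69% and 5.77% of all rows. Of the 3 tested neutrophil markers 1 was called (S100a8, log2 difference 1.78, limma adjusted p = 0.0453), and of the 5 tested red cell markers 1 (Alas2, 1.91, limma adjusted p = 0.0404). Over all rows 0.0497% were called higher. The summed neutrophil level was 1.16 to 1.31 with p-nitroanisole against 0.37 to 0.53 with vehicle. That sum is nearly all S100a8 and S100a9 (log2 difference 1.54, limma adjusted p = 0.0661), while Csf3r, the receptor for granulocyte colony-stimulating factor, differed by 0.03 (SE 0.09) with overlapping groups. The part of the RNA behind these markers in the levels of the 10 genes was not tested.

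The profile of Cyp2e1 over the 6 arrays was set against 12187 other named genes by the root mean square distance of the log2 values after each gene's vehicle mean was subtracted. The nearest were Cldn1, a tight junction protein, Ang, a secreted ribonuclease, Zc3hav1, an antiviral RNA-binding protein, Usp18, a protease that strips ISG15 from proteins, and Marchf11, a membrane ubiquitin ligase, at distances of 0.16 to 0.20 log2 units. Their differences ran from -1.02 to -0.84, a range set by the selection, since the distance was taken to the profile of Cyp2e1. Zc3hav1, at -0.84, was well above background on 2 of 3 treated and 3 of 3 vehicle arrays. None of the 5 was called (limma adjusted p = 0.0891 to 0.139), and likeness over 6 arrays in 2 groups says nothing of shared control.

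**Figure D4:**
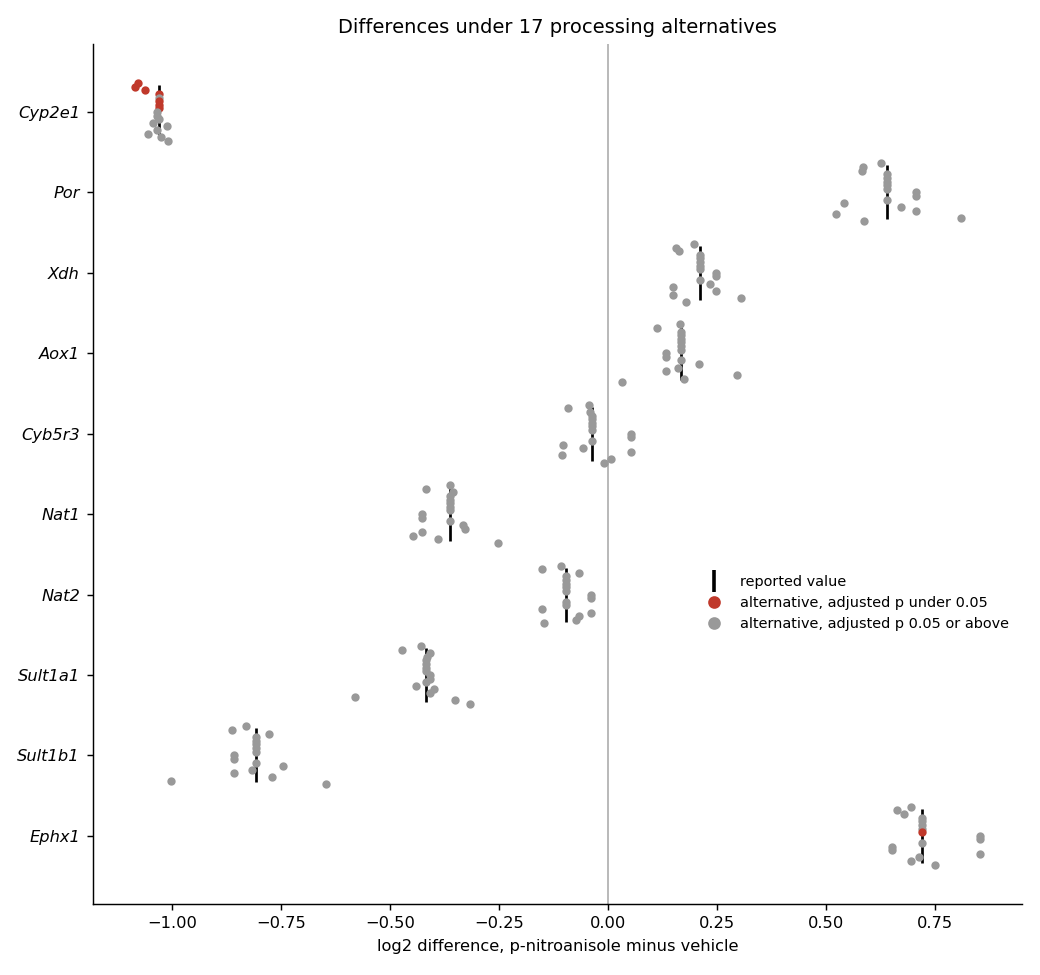
Log2 difference of each of the 10 genes, p-nitroanisole minus vehicle, as reported (black bar) and under 17 processing alternatives (points, 1 to a line, with the 6 fits that leave out 1 array lowest). Red points have an adjusted p under 0.05. Cyp2e1 keeps its size throughout, and Cyb5r3 is the gene whose points fall on both sides of 0.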

How the data were processed

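Per the file headers, the intensity of each spot was extracted by the authors with Agilent software (Feature Extraction 10.7.1.1), which subtracted background and detrended each array, with no scaling between arrays. The deposited series matrix holds a linear signal that equals these intensities divided by 1 constant per array, within 0.0241% of the array's 75th percentile, with no centring of genes. Its column medians were 0.109, 0.108 and 0.111 for treated and 0.105, 0.105 and 0.105 for vehicle arrays.

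Intensities were floored at 1 and taken as log2 minus the 75th percentile of that array without control spots (877 to 1022). No spot was saturated, 66.4% to 69.2% of probes per array were well above background, and all 17 probes of the 10 genes were so on all 6 arrays. The number of arrays limits the precision. Symbols came by accession from RefSeq on GRCr8 (28193 of 61537 probes named); the array design cites another build, so no probe coordinates are given, and the promoter windows are those of RefSeq on GRCr8. A probe was tested if well above background on all 3 arrays of a group (41218 were), and the brightest stood for its gene, leaving 32202 rows. limma 3.58.1 in R 4.3.3 (lmFit, eBayes, two-sided) compared the groups, and the adjusted p of a second probe comes from the fit with every probe as its own row. The procedure was tested on simulated data.

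The vehicle arrays and treated replicates 1 and 2 lay on slide 1 and treated replicate 3 on slide 2. Arrays with the same replicate number did not deviate together (correlations -0.01, 0.04 and -0.01). The 10 genes, the lists and the tests were chosen with earlier results of these data known. Named genes are the 10, plus from each list those with an unadjusted p under 0.05 (at most 5, or 3 for markers) or else the 2 largest differences. Cyb5a, Cyb5r1, Tyms, Sult1c3, Papss2, Aqp1, Slc7a13, Csf3r and Hemgn were named outside this rule with their values known. Not all marker genes selected are printed. The alternatives changed the scaling, background correction, source of values, filter on dim probes, probe rule, variance model, slide and replicate blocks and the arrays used. Probe sequences were not used here.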

Additional observations from a re-analysis of the deposited data

How the results depend on the processing

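Of the 10 genes, 9 kept the sign of their difference under all 17 alternatives. Cyp2e1 ranged from -1.08 to -1.01 and was called in 7 of 17, with an adjusted p from 0.00106 to 0.202. Ephx1 was called in 1 of 17 (0.65 to 0.85) and the other 8 genes in none. Cyb5r3 changed sign to 0.054 within slide 1, with the slide as a block and without treated replicate 3 (the same 5 arrays), and to 0.0075 without vehicle replicate 2, and ran from -0.105 to 0.054 without 1 array. Its other probe became 0.071 in the first 3 of these, 0.022 without vehicle replicate 2 and 0.022 with normexp, and ran from -0.085 to 0.071 without 1 array. The other Nat2 probe became 0.015 without vehicle replicate 1 and ran from -0.155 to 0.015 without 1 array. The cause was not tested. Across all rows 24 were called, against 85 with normexp, 2 with no filter on dim probes (48983 rows), 316 with a trended and robust variance, 9 within slide 1 or with the slide as a block, 1 with the replicate block and 0 to 9 without 1 array. Of the 10 genes 1 was called, against 2 with the trended variance and 0 with no filter, within slide 1, with the slide as a block or with the replicate block, and 0 without any 1 of the 6 arrays. Of the pathway genes 0 were called, against 1 (Slc26a1) with the trended variance. Under the replicate block Cyp2e1 had an adjusted p of 0.202. The replicate numbers share no more than a number, so this block has no basis in the design. Normexp was run on the median spot signal, chosen after seeing the data, and the planned version on the mean signal was not run. Arrays per group limit every value, and all probes of the 10 genes were well above background on every array.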
